A study of Mus with 2 samples.

Results

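The growth hormone (GH) and insulin-like growth factor (IGF) axis was followed through 10 named genes of the 32285 genes counted by single-nucleus RNA sequencing (snRNA-seq) of mouse interscapular brown adipose tissue (iBAT). The genes were taken by name, with earlier results of these data known. On the GH side they were *Ghr*, *Stat5a*, *Stat5b* and *Socs2*, beside the ligand *Igf1* and the receptor *Igf1r*. The others were *Igfbp3*, *Igfbp4*, *Igfbp5* and *Igfbp7*, called binding proteins below after their names, with no measure of binding. Together the 10 genes held 44980 unique molecular identifiers (UMIs, counted RNA molecules). A longer list of 36 other genes of the axis was followed beside them.

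Both libraries came from 8-week-old C57BL/6 mice on normal chow, and each pooled 4 mice whose nuclei cannot be told apart. Mice of the *Wtap* flox/flox library carried *Wtap* alleles with loxP sites around exon 4, and their label names no recombinase. Mice of the library labelled *Wtap*-BKO carried the same alleles and *Ucp1*-iCre, in which an IRES-Cre cassette at the end of *Ucp1* ties the recombinase to cells that transcribe *Ucp1*. WTAP is a subunit of the complex that writes m6A on mRNA. With 1 library per genotype there is no replicate, no test and no p-value, and every interval below is a 95% interval of counting error alone.

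GH binds GHR, which activates the kinase JAK2 and then the transcription factors STAT5A and STAT5B, and genes such as *Socs2*, *Cish* and *Igf1* are classical targets of this route. SOCS2 and CISH feed back on the receptor. Secreted IGF1 acts through IGF1R and the adaptors IRS1 and IRS2, and IGF binding proteins hold it in the extracellular space. In fat, GH is known to favour lipolysis and to restrain fat mass, while IGF1 and insulin signalling favour adipocyte growth.

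The *Wtap* flox/flox library held 9494 nuclei with a median of 954 UMIs, and the library labelled *Wtap*-BKO held 8772 nuclei with a median of 1306 UMIs. Mitochondrially encoded genes took 7.60% and 11.7% of their UMIs. Nuclei were clustered without the 10 genes and the 36 other axis genes among the variable features, and clusters were named from marker genes. In all, 6748 and 4934 nuclei were adipocyte-like, 272 and 482 fibroblast-like, 1212 and 846 endothelial-like, 401 and 207 pericyte-like, 277 and 1014 macrophage-like, and 121 and 748 T cell-like (*Wtap* flox/flox first, here and below). Of the 12 adipocyte markers, 11 and 12 were higher in adipocyte-like nuclei than in the rest. The counts of *Wtap* did not tell the libraries apart, with 383 and 404 UMIs in adipocyte-like nuclei, giving a log2 ratio of -0.06 (interval -0.27 to 0.15). Counts per gene do not show where in *Wtap* the reads lay and check nothing about deletion of the floxed exon, so the direction of every ratio rests on the labels. The libraries shared 20 barcodes, and leaving these nuclei out moved 37 log2 ratios of axis genes by at most 0.0102.

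Adipocyte-like nuclei held the highest level of *Ghr* in both libraries, although with classes set by a gate on marker UMIs in place of clusters, pericyte-like nuclei were highest in the library labelled *Wtap*-BKO. Its level was 1205 CPM (a gene's UMIs per 1000000 UMIs of the class; interval 1180 to 1230, 9154 UMIs) in *Wtap* flox/flox and 2188 CPM (2156 to 2220, 18271 UMIs) in the library labelled *Wtap*-BKO, 1.82-fold higher there. The log2 ratio of the latter level to the former, as given throughout, was 0.86 (0.82 to 0.90). The median share of mitochondrial UMIs in these nuclei was 2.97% and 9.87%. Without nuclei over 5%, the ratio of *Ghr* was 1.35 (7723 and 6137 UMIs), and those of *Igf1*, *Igfbp4* and *Igfbp7* were 3.89, 2.95 and 2.28, and the part of mitochondrial content in the ratios was not tested. After each nucleus was thinned to 1000 UMIs, which left out 3459 and 1092 shallower adipocyte-like nuclei, 64.5% (62.9 to 66.2) and 66.1% (64.6 to 67.6) of adipocyte-like nuclei had at least 1 *Ghr* UMI, and without thinning, at median depths of 989 and 1475 UMIs, 61.0% and 73.5% had one. At equal depth the intervals of the shares overlapped, whereas those of the levels did not.

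The difference in *Ghr* was uneven among the 5 adipocyte-like clusters. The largest, cluster 0 (3296 and 1836 nuclei), was led by the muscle gene *Ttn* and had no adipocyte marker among its 10 leading genes, although 9 of the 12 adipocyte markers were at least 1.5 times as high there as in nuclei of the other named types. Without it the log2 ratio of *Ghr* was 0.93, and that of *Socs2* was 0.95, which left 4 of the 10 genes at least 2-fold higher. The cluster led by *Slc7a10*, *Cyp2e1* and *Trhde* (cluster 9) stood apart from the other 4. *Ghr* was at 2764 CPM (2570 to 2968) there in *Wtap* flox/flox and at 6802 CPM (6650 to 6956) in the library labelled *Wtap*-BKO, giving a log2 ratio of 1.30. In the other 4 clusters it ranged from 767 to 1460 CPM and from 1079 to 2278 CPM, with log2 ratios of 0.53 in cluster 0, 0.13 in cluster 1 (led by *Lncbate10* and *Foxp2*), 0.49 in cluster 2 (rich in mitochondrial UMIs) and 0.64 in cluster 11 (led by interferon-responsive *Gbp10* and *Iigp1*). Cluster 9 had 204 and 508 nuclei, and its share of the *Ghr* UMIs of adipocyte-like nuclei was 8.24% and 41.7%. Left out of the class, it took the log2 ratio of *Ghr* down to 0.36 (0.32 to 0.40). With all clusters weighted by their *Wtap* flox/flox shares of UMIs, the ratio was 0.46. *Ucp1*, whose locus drives the recombinase, was at 103 CPM (68.2 to 148) and 48.3 CPM (36.3 to 63.0) in cluster 9, against 136 to 198 CPM and 225 to 351 CPM in the other 4. Endothelial-like nuclei also gave *Ucp1* UMIs, at 212 and 148 CPM in cluster 4 and at 102 and 49.8 CPM in cluster 5. In *Wtap* flox/flox the level of *Ucp1* thus did not separate adipocyte-like from endothelial-like clusters.

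**Figure D1:**
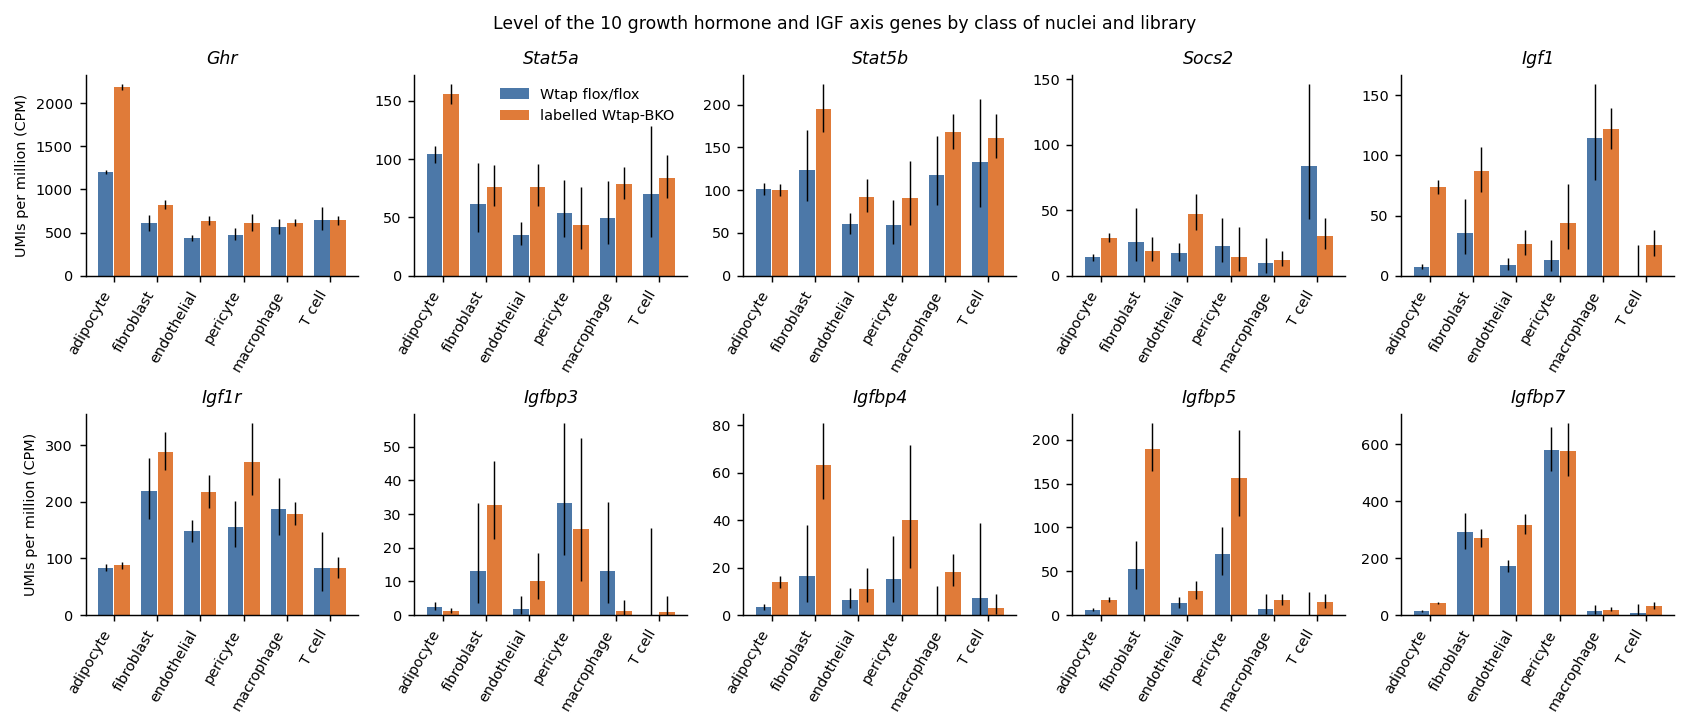
CPM (linear axes from 0) of the 10 genes in 6 classes of nuclei, blue for the *Wtap* flox/flox library and orange for the library labelled *Wtap*-BKO, with 1 library each; bars are levels and lines are 95% counting intervals. With classes set by clusters, *Ghr* stood highest in adipocyte-like nuclei, at 1205 and 2188 CPM (with the marker gate, in pericyte-like nuclei of the library labelled *Wtap*-BKO), whereas *Igf1* stood highest in macrophage-like nuclei, at 115 and 122 CPM, and *Igfbp7* in pericyte-like nuclei, at 579 and 576 CPM.

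Outside adipocyte-like nuclei, *Ghr* was at 606 and 822 CPM in fibroblast-like, 439 and 639 CPM in endothelial-like, 477 and 612 CPM in pericyte-like, 566 and 614 CPM in macrophage-like and 649 and 641 CPM in T cell-like nuclei. The log2 ratio in macrophage-like nuclei (0.12) ran from -0.70 without the highest doublet scores to 0.87 with the marker gate, that in fibroblast-like nuclei (0.44) was 1.22 with the gate, and that in endothelial-like nuclei (0.54) was -0.01 without nuclei over 5% mitochondrial UMIs. Taken by lineage, vessel nuclei (endothelial- and pericyte-like) were at 447 and 633 CPM and immune nuclei at 573 and 610 CPM. Below adipocyte-like nuclei, classes that were neighbours in order of level overlapped in their intervals in *Wtap* flox/flox, and in the library labelled *Wtap*-BKO fibroblast-like nuclei stood above the other 4 classes. All 12 adipocyte markers, *Adipoq* and *Plin1* among them, also gave UMIs in every class, and the source of these was not tested. In T cell-like nuclei the 12 markers were at 44.1% to 74.3% of their adipocyte-like level in *Wtap* flox/flox and at 31.7% to 55.3% in the library labelled *Wtap*-BKO, and *Ghr* was at 53.9% and 29.3%. In macrophage-like nuclei *Ghr* was at 47.0% and 28.1%, with the markers at 45.0% to 68.6% and 23.7% to 45.9%. *Ghr* also lay within the marker range in endothelial- and pericyte-like nuclei of both libraries. In fibroblast-like nuclei it was at 50.3%, within the marker range of 26.6% to 53.1%, in *Wtap* flox/flox, and at 37.6%, above the range of 20.8% to 34.5%, in the library labelled *Wtap*-BKO. The share of T cell-like nuclei with a *Ghr* UMI after thinning was 51.7% (38.4 to 64.8) of 60 and 30.6% (25.9 to 35.6) of 366, at median depths of 989 and 985 UMIs before thinning. The share was 38.98% and 23.0% of macrophage-like, 37.0% and 38.1% of fibroblast-like, 37.6% and 35.0% of pericyte-like and 34.0% (29.9 to 38.2) and 41.6% (35.7 to 47.6) of endothelial-like nuclei. Of these 4 classes, only endothelial-like nuclei of the library labelled *Wtap*-BKO had an interval above that of T cell-like nuclei, and the other shares overlapped it or lay below it.

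**Figure D2:**
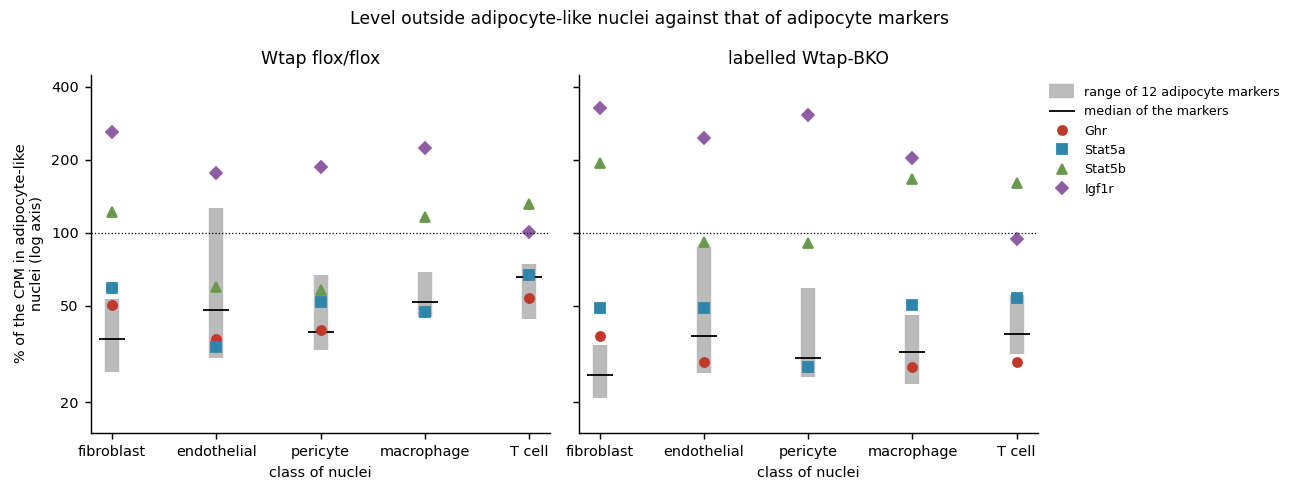
Level in 5 other classes as a percentage of the CPM in adipocyte-like nuclei of the same library (log axis), for the *Wtap* flox/flox library on the left and the library labelled *Wtap*-BKO on the right; grey bars span the 12 adipocyte markers, black dashes their median, and coloured points are *Ghr*, *Stat5a*, *Stat5b* and *Igf1r*. *Ghr* lay inside or next to the grey bars in every class, while *Igf1r* lay above 100% in fibroblast-, endothelial-, pericyte- and macrophage-like nuclei.

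The transcription factors downstream of GHR differed from each other. In adipocyte-like nuclei *Stat5a* was at 104 CPM (791 UMIs) and 156 CPM (1300 UMIs), giving a log2 ratio of 0.58 (0.45 to 0.71). *Stat5b* was at 101 CPM (768 UMIs) and 100.3 CPM (838 UMIs), and the interval of its log2 ratio spanned 0 (-0.01, -0.15 to 0.13). Of the UMIs of both genes in adipocyte-like nuclei, *Stat5a* made up 50.7% (48.2 to 53.2) and 60.8% (58.7 to 62.9). It made up 33.3% and 28.1% in fibroblast-like, 29.4% and 31.9% in macrophage-like and 34.5% and 34.2% in T cell-like nuclei. For the vessel, the share was 47.7% and 32.4% among pericyte-like and 36.8% and 45.2% among endothelial-like nuclei. In the library labelled *Wtap*-BKO the interval of adipocyte-like nuclei lay above those of the other 5 classes, whereas in *Wtap* flox/flox it overlapped those of pericyte- and T cell-like nuclei. *Stat5b* was at 124 and 195 CPM in fibroblast-like and at 118 and 168 CPM in macrophage-like nuclei, with log2 ratios of 0.65 (0.15 to 1.20) and 0.51 (0.01 to 1.05). Most endothelial-like nuclei of *Wtap* flox/flox (851 of 1212) were in cluster 4, rich in mitochondrial UMIs, and most of the other library (567 of 846) in cluster 5, led by *Cyyr1*, and the median ratio of all genes in the class was 0.35. In endothelial-like nuclei *Stat5a* was at 35.2 and 76.2 CPM, giving a log2 ratio of 1.11 (0.60 to 1.64). The ratio was 1.44 (0.83 to 2.05; 46 and 50 UMIs) within cluster 4 and 0.52 (-0.58 to 1.74; 10 and 26 UMIs) within cluster 5, and that of the class turned to -0.34 (-1.54 to 0.80; 20 and 11 UMIs) once nuclei with over 5% mitochondrial UMIs were removed. The genes are near-identical paralogs that lie 347 bases apart on chromosome 11, and how reads shared by both were counted was not given in the sources used here, so the split between them is uncertain.

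*Socs2*, the feedback inhibitor of GHR signalling, was at 13.95 CPM (106 UMIs) and 29.1 CPM (243 UMIs) in adipocyte-like nuclei, giving a log2 ratio of 1.06 (0.73 to 1.40). Its ratio was 1.27 in cluster 0 and 1.38 in cluster 9, and between 0.17 and 0.75 in clusters 1, 2 and 11, whose intervals spanned 0. Without cluster 9 it was 0.86, in nuclei with at least 1000 UMIs 0.97 and with the marker gate 0.92. In endothelial-like nuclei it was at 17.0 and 47.2 CPM, giving a log2 ratio of 1.47 (0.76 to 2.21), and the ratio was 1.40 (0.36 to 2.45) within cluster 4 and 0.68 (-0.40 to 1.88) within cluster 5. In T cell-like nuclei the order was the opposite, at 83.8 CPM (12 UMIs) and 30.6 CPM (30 UMIs), giving a log2 ratio of -1.45 (-2.46 to -0.35). After thinning, 5% (1.04 to 13.9) of 60 and 2.19% (0.948 to 4.26) of 366 T cell-like nuclei had a *Socs2* UMI, and these intervals overlapped. Levels in fibroblast-, pericyte- and macrophage-like nuclei were 9.82 to 26.1 CPM, and their intervals for the ratio spanned 0.

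*Igf1*, the secreted ligand, showed the greatest ratio of the 10 genes in adipocyte-like nuclei. It was at 7.64 CPM (5.80 to 9.87, 58 UMIs) in *Wtap* flox/flox and at 73.5 CPM (67.8 to 79.6, 614 UMIs) in the library labelled *Wtap*-BKO, giving a log2 ratio of 3.27 (2.88 to 3.68). Of 14088 genes with at least 20 UMIs in adipocyte-like nuclei, 133 had a higher ratio. The share of nuclei with an *Igf1* UMI after thinning was 0.669% (0.420 to 1.01) and 5.44% (4.74 to 6.20), and the intervals did not overlap. Cluster 9 again held the highest level, at 69.6 CPM (19 UMIs) and 274 CPM (307 UMIs), and 32.8% and 50% of the *Igf1* UMIs of the class. The ratio in cluster 9 was 1.98 (1.31 to 2.73), that in cluster 11 was 1.48 (0.15 to 3.17; 5 and 45 UMIs), and the 3 largest clusters had higher ones, with intervals that overlapped that of cluster 9. Levels were 4.87 and 47.0 CPM in cluster 0, 3.79 and 35.0 CPM in cluster 1 and 6.80 and 38.2 CPM in cluster 2, with log2 ratios of 3.27, 3.21 and 2.49. Without cluster 9 the ratio over the class was 2.99 (2.51 to 3.51).

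Macrophage-like nuclei had the highest *Igf1* level, at 115 CPM (35 UMIs) and 122 CPM (201 UMIs), and the interval of the log2 ratio spanned 0 (0.09, -0.44 to 0.65). With a clustering resolution of 1.0, which kept 245 and 589 macrophage-like nuclei, this ratio was 0.75 (0.21 to 1.34). Fibroblast-like nuclei followed, at 35.8 CPM (11 UMIs) and 87.1 CPM (88 UMIs), giving a log2 ratio of 1.28 (0.37 to 2.33). Vessel nuclei were at 9.59 and 29.9 CPM and immune nuclei at 74.8 and 80.4 CPM. T cell-like nuclei had 0 UMIs, for which the interval reached 25.8 CPM, and 25 UMIs (25.5 CPM). In *Wtap* flox/flox, macrophage-like nuclei stood alone above the rest, whereas in the library labelled *Wtap*-BKO the intervals of macrophage- and fibroblast-like and of fibroblast- and adipocyte-like nuclei overlapped. Macrophage-like nuclei took 2.92% and 11.6% of the libraries, so macrophage markers were read beside *Igf1* in adipocyte-like nuclei. There the 12 macrophage markers together were at 3.95% and 5.18% of their macrophage-like level, with single markers at up to 51.9% and 30.3%, and none was at 0. *Igf1* in adipocyte-like nuclei was at 6.66% and 60.4% of its macrophage-like level. The ratio of *Igf1* was 3.29 (48 and 440 UMIs) without adipocyte-like nuclei that also passed a gate on the marker UMIs of another class.

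**Figure D3:**
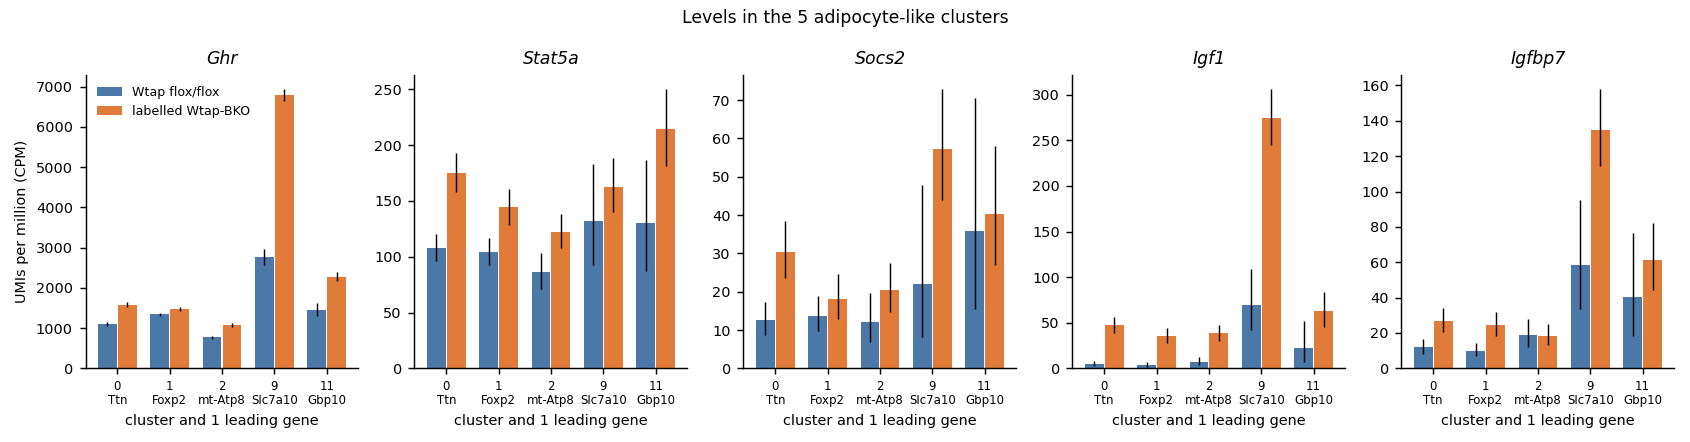
CPM of 5 genes in the 5 adipocyte-like clusters, each named by its number and 1 leading gene, in the *Wtap* flox/flox library (blue) and the library labelled *Wtap*-BKO (orange); lines are 95% counting intervals and axes start at 0. *Ghr*, *Igf1* and *Igfbp7* stood highest in cluster 9 of the library labelled *Wtap*-BKO, at 6802, 274 and 135 CPM, whereas *Stat5a* was at 163 CPM there and at 122 to 214 CPM in the other 4 clusters.

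*Igf1r*, the receptor of IGF1, was lowest in adipocyte- and T cell-like nuclei. It was at 83.5 CPM (634 UMIs) and 87.9 CPM (734 UMIs) in adipocyte-like nuclei, giving a log2 ratio of 0.07 (-0.08 to 0.23), and its ratio ranged from -0.35 to 0.54 over the 5 clusters, each with an interval that spanned 0. Fibroblast-like nuclei were at 218 and 288 CPM, 262% and 328% of the adipocyte-like level, pericyte-like nuclei at 156 and 270 CPM, endothelial-like nuclei at 148 and 217 CPM and macrophage-like nuclei at 187 and 178 CPM. The ratios were 0.79 (0.28 to 1.30) in pericyte-like, 0.55 (0.28 to 0.83) in endothelial-like and 0.40 (0.01 to 0.81) in fibroblast-like nuclei, against -0.07 (-0.48 to 0.37) in macrophage-like nuclei. Within the endothelial-like clusters, *Igf1r* was at 118 and 116 CPM in cluster 4, where the log2 ratio was -0.03 (-0.48 to 0.40), and at 301 and 333 CPM in cluster 5, where it was 0.15 (-0.26 to 0.56).

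Of the binding proteins, *Igfbp7* was highest in pericyte-like nuclei. Pericyte-like nuclei had 579 CPM (226 UMIs) and 576 CPM (158 UMIs), giving a log2 ratio of -0.01 (-0.31 to 0.29), above every other class in both libraries, although with the marker gate endothelial-like nuclei were highest in the library labelled *Wtap*-BKO. Endothelial-like nuclei had 170 and 317 CPM, giving a log2 ratio of 0.90 (0.66 to 1.14) that was 0.68 (0.33 to 1.02) within cluster 4 and 0.32 (-0.05 to 0.70) within cluster 5, and fibroblast-like nuclei had 290 and 269 CPM. Adipocyte-like nuclei had 14.9 CPM (113 UMIs) and 41.5 CPM (347 UMIs), giving a log2 ratio of 1.48 (1.17 to 1.80). Cluster 9 held 14.2% and 43.5% of these UMIs, at 58.7 and 135 CPM, and without it the ratio was 1.03. The level in adipocyte-like nuclei was 2.57% and 7.22% of that in pericyte-like nuclei, where 11 pericyte markers together were at 3.20% and 4.74%, with single markers at up to 36.8% and 41.8%. The ratio fell to 0.72 when classes were set by the marker gate alone.

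*Igfbp5* was carried by fibroblast- and pericyte-like nuclei, with 52.1 CPM (16 UMIs) and 190 CPM (192 UMIs) in the former, giving a log2 ratio of 1.87 (1.13 to 2.70), and 69.2 CPM (27 UMIs) and 157 CPM (43 UMIs) in the latter, giving a log2 ratio of 1.18 (0.45 to 1.93). Adipocyte-like nuclei had 5.92 CPM (45 UMIs) and 17.7 CPM (148 UMIs), giving a log2 ratio of 1.58 (1.09 to 2.10). Unlike *Ghr* and *Igf1*, *Igfbp5* was not high in cluster 9 (3.67 and 8.94 CPM). *Igfbp4* was at 16.3 CPM (5 UMIs) and 63.3 CPM (64 UMIs) in fibroblast-like nuclei, giving a log2 ratio of 1.96 (0.66 to 3.63), and at 3.29 CPM (25 UMIs) and 13.8 CPM (115 UMIs) in adipocyte-like nuclei, giving a log2 ratio of 2.06 (1.43 to 2.75). Cluster 9 held 32% and 60% of the latter UMIs, at 29.3 CPM (8 UMIs) and 61.7 CPM (69 UMIs), and without it the ratio was 1.45. Macrophage-like nuclei had 0 *Igfbp4* UMIs, for which the interval reached 12.1 CPM, and 30 UMIs (18.2 CPM, 12.3 to 25.95). Fibroblast markers together were at 3.01% and 4.32% of their fibroblast-like level in adipocyte-like nuclei, with single markers up to 5.35% and 6.84%, and in the library labelled *Wtap*-BKO *Igfbp4* was at 21.7% and *Igfbp5* at 9.33%. In CPM, these markers together were at 226 and 633 in adipocyte-like nuclei, so they too were higher in the library labelled *Wtap*-BKO. The part of fibroblast RNA in the adipocyte-like ratios of *Igfbp4* and *Igfbp5* was not tested. *Igfbp3*, the main carrier of IGF1 in plasma, was sparse: 19 and 10 UMIs in adipocyte-like nuclei (log2 ratio -1.06, -2.33 to 0.11), 4 and 33 in fibroblast-like nuclei (1.33, -0.17 to 3.28) and 13 and 7 in pericyte-like nuclei (-0.39, -1.95 to 1.05). The interval spanned 0 in all 3 of these classes, and *Igfbp3* did not reach 20 UMIs in endothelial-like (3 and 10), macrophage-like (4 and 2) and T cell-like nuclei.

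**Figure D4:**
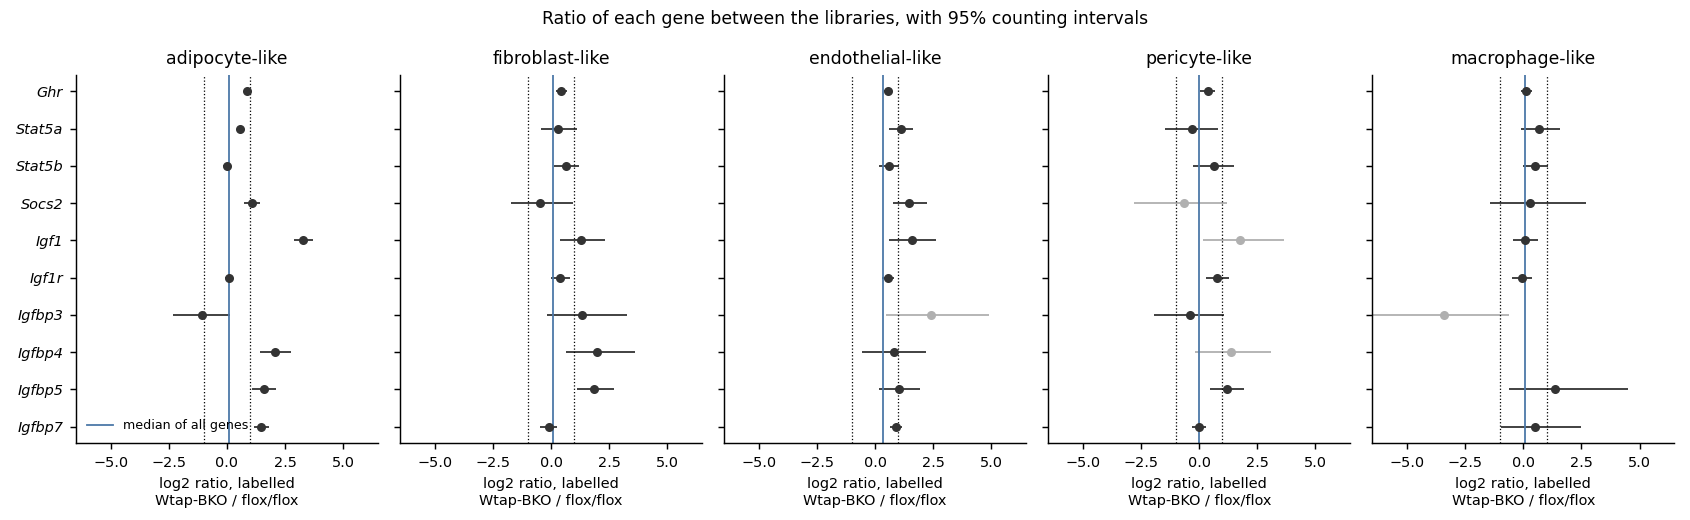
Log2 ratio of CPM, library labelled *Wtap*-BKO to *Wtap* flox/flox, for the 10 genes in 5 classes; points are ratios, lines 95% counting intervals (cut at the axis limits), grey points have fewer than 20 UMIs in both libraries together, dotted lines mark 2-fold and blue lines the median of all genes. *Igf1* in adipocyte-like nuclei lay farthest to the right, at 3.27, and *Stat5b* and *Igf1r* there lay near 0, at -0.01 and 0.07.

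Counted over the 10 genes in adipocyte-like nuclei, 5 were at least 2-fold higher in the library labelled *Wtap*-BKO (*Socs2*, *Igf1*, *Igfbp4*, *Igfbp5* and *Igfbp7*), where 14.7% of the 14088 genes with at least 20 UMIs were, and 1 was at least 2-fold lower (*Igfbp3*, whose interval spanned 0), where 4.2% were. At 1.5-fold, *Ghr* joined the higher genes, which made 6, beside 25.1% of all genes, and 1 was lower, beside 12.2%. The count rests in part on the mix of clusters: weighted by the *Wtap* flox/flox shares of the clusters, the log2 ratio was 0.85 for *Socs2*, 0.98 for *Igfbp7*, 1.29 for *Igfbp4*, 1.69 for *Igfbp5* and 2.70 for *Igf1*. The median log2 ratio was 0.96 over the 10 genes and 0.07 over all genes, and all 10 passed the minimum of 20 UMIs in adipocyte- and fibroblast-like nuclei. The genes were chosen with earlier results of these data known, so these counts and medians describe the list and test nothing.

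Among fibroblast-like nuclei, 4 of the 10 were at least 2-fold higher (*Igf1*, *Igfbp3*, *Igfbp4* and *Igfbp5*) and 0 were lower, beside 11.5% and 4.43% of all genes. The call of *Igfbp3*, whose interval spanned 0, was lost in nuclei with at least 1000 UMIs (0.73), without nuclei over 5% mitochondrial UMIs (0.89) and with the marker gate (0.79). With the gate *Igfbp5* was at 1.19, and *Ghr* (1.22) and *Stat5a* (1.10 against 0.30) passed 2-fold, as did *Stat5b* (1.03) in nuclei with at least 1000 UMIs. Of the 9 genes that passed the minimum in endothelial-like nuclei, 4 were at least 2-fold higher (*Stat5a*, *Socs2*, *Igf1* and *Igfbp5*) and 0 lower, beside 14.9% and 1.65%. Within cluster 4 all 4 were past 2-fold with intervals above 0, with log2 ratios of 1.44, 1.40, 1.98 and 1.46 in this order, and within cluster 5 all 4 were under 2-fold with intervals that spanned 0, with ratios of 0.52, 0.68, 0.95 and 0.73. *Igfbp5* was also under 2-fold, at 0.53 to 0.95, without mitochondrial UMIs in the denominator, with the libraries scaled by the median ratio of genes with at least 20 UMIs in each, without nuclei over 5% mitochondrial UMIs (3 and 3 UMIs), without the highest doublet scores, with 8 PCs and with the marker gate. *Stat5a* was under it with that scaling (0.78) and with the gate (0.96), as well as without nuclei over 5% mitochondrial UMIs, and *Igf1* without the highest doublet scores (0.90). Without nuclei over 5% mitochondrial UMIs *Socs2* was at 2.53 (6 and 24 UMIs) and *Igf1* at 3.11 (1 and 6 UMIs). Pericyte-like nuclei had 1 of 7 higher (*Igfbp5*) and 0 lower, beside 6.7% and 4.94%. By the observed counts, macrophage-like nuclei had 2 of 9 higher (*Igfbp4*, at 0 UMIs in *Wtap* flox/flox, and *Igfbp5*, with 2 and 28 UMIs) and 0 lower, beside 13.2% and 6.54%. Against a floor of 3 UMIs in *Wtap* flox/flox both were under 2-fold, which left 0, and the interval of *Igfbp5* spanned 0. Of the 7 that passed the minimum in T cell-like nuclei, 2 were higher by the observed counts (*Igf1*, with 0 and 25 UMIs, and *Igfbp7*, with 1 and 32 UMIs and an interval that spanned 0) and 1 was lower (*Socs2*), beside 19% and 8.03%. Against that floor both of the higher genes were under 2-fold.

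Around these genes, the other parts of the axis moved unevenly in adipocyte-like nuclei. Of the 36 other axis genes, 30 had at least 20 UMIs, and 8 of these were at least 2-fold higher and 1 at least 2-fold lower, beside 14.7% and 4.2% of all genes. Their median log2 ratio was 0.22, beside 0.07 over all genes. Among the adaptors that IGF1R and the insulin receptor share, *Irs1* was at 125 CPM (951 UMIs) and 391 CPM (3265 UMIs), giving a log2 ratio of 1.64 (1.54 to 1.75), and *Irs2* at 125 and 322 CPM, giving a log2 ratio of 1.37 (1.26 to 1.47). Both were higher in each of the 5 adipocyte-like clusters, by log2 ratios of 1.27 to 2.01 for *Irs1* and 1.13 to 1.45 for *Irs2*. *Grb10*, an adaptor that restrains both receptors, had a log2 ratio of 1.27 (75 and 199 UMIs). By contrast, *Insr*, the insulin receptor, was at 463 and 333 CPM, giving a log2 ratio of -0.48 (-0.55 to -0.40), and *Foxo1*, a transcription factor that insulin and IGF1 signalling hold out of the nucleus, was at 926 CPM (7031 UMIs) and 391.5 CPM (3270 UMIs), giving a log2 ratio of -1.24 (-1.30 to -1.18). *Foxo1* was lower in all 5 clusters, with log2 ratios of -1.44 to -0.76.

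Feedback inhibitors differed by gene. *Socs1*, induced by interferons, had 7 and 103 UMIs (log2 ratio 3.74, 2.65 to 5.09), of which 57 of the latter were in cluster 11, at 79.3 CPM. *Socs3* had 10 and 42 UMIs (1.93, 0.92 to 3.09), and *Ptpn6*, a phosphatase that is abundant in blood cells, had 13 and 80 UMIs (2.48, 1.63 to 3.46). *Ptpn6* was at 91.7 and 135 CPM in macrophage-like nuclei and at 1.71 and 9.58 CPM in adipocyte-like nuclei, and the part of immune RNA in the latter was not tested. *Cish*, a STAT5 target like *Socs2*, was at 88.9 and 68.2 CPM, giving a log2 ratio of -0.38 (-0.54 to -0.22), and *Jak2* at 38.3 and 42.03 CPM, giving a log2 ratio of 0.13 (-0.09 to 0.36). *Igfals*, the stabiliser of circulating IGF1 complexes, had 42 and 114 UMIs (1.30) and *Htra1*, a protease that cleaves binding proteins, 56 and 137 UMIs (1.15). The ligand *Igf2* had 5 and 0 UMIs, and *Igfbp1* and *Igfbp2* had 0 in adipocyte-like nuclei of both libraries.

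**Figure D5:**
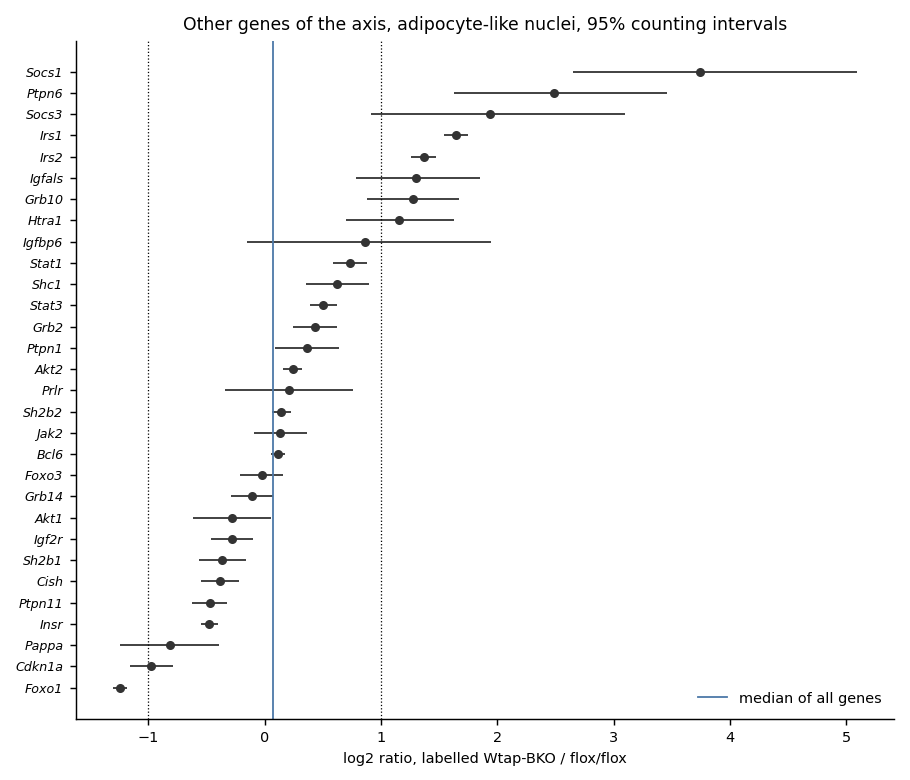
Log2 ratio of CPM, library labelled *Wtap*-BKO to *Wtap* flox/flox, in adipocyte-like nuclei for the 30 of 36 other axis genes with at least 20 UMIs; points are ratios, lines 95% counting intervals, dotted lines mark 2-fold and the blue line the median of all genes, 0.07. *Socs1* lay at the top, at 3.74, *Irs1* and *Irs2* had narrow intervals at 1.64 and 1.37, and *Foxo1* lay lowest, at -1.24.

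The nearest annotated neighbours were read in adipocyte-like nuclei, since a neighbour can share reads with a member. In build mm10 (GRCm38), *Ghr* lies on chromosome 15 at 3317755 to 3583352, and *Ccdc152* lies 14229 bases beside it, at 3280099 to 3303526. *Ccdc152* had 22 UMIs (2.90 CPM) and 426 UMIs (51.0 CPM), giving a log2 ratio of 4.14 (3.52 to 4.83), against 0.86 for *Ghr*. Per 1000 *Ghr* UMIs there were 2.40 (1.51 to 3.64) and 23.3 (21.1 to 25.7) *Ccdc152* UMIs in adipocyte-like nuclei, and 46.2 (30.7 to 67.0) in T cell-like nuclei of the library labelled *Wtap*-BKO. *Selenop*, whose span overlaps that of *Ccdc152*, had a log2 ratio of 0.60 (280 and 468 UMIs), so *Ccdc152* was apart from both of its neighbours. On the other side of *Ghr*, *Fbxo4* had a ratio of 0.22 (-0.10 to 0.54).

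*Igf1* lies on chromosome 10 at 87858265 to 87937047 and overlaps *Igf1os*, a noncoding gene that had 5 and 40 UMIs, giving a log2 ratio of 2.86 (1.52 to 4.56). Whether reads were assigned by strand was not given in the sources used here, so reads of the overlapping pair cannot be told apart. *Igfbp7*, on chromosome 5, overlaps *Polr2b* and *Gm34648* by its annotated span. Of these, only *Polr2b* was read as a neighbour, with a ratio of 0.12. The span of *Stat5a* is followed by *Stat3*, at 129 and 183 CPM, giving a log2 ratio of 0.50. Of 18 neighbours that are not among the 10 genes, 9 had at least 20 UMIs, and of these 4 were at least 2-fold higher (*Ccdc152*, *Igf1os*, *Tns3* and *Top2a*) and 1 lower (*Pgpep1l*, 15 and 8 UMIs, with an interval that spanned 0), beside 14.7% and 4.2% of all genes.

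Patterns over the 6 classes of both libraries, 12 points that share libraries and depth, were compared by Pearson's r of log2(CPM + 1), as a description. Nearest to *Ghr* were *Ltbp3* (r = 0.95), *Slc1a3* and *Por* (0.94 each), and *Ltbp3* (0.92) was also nearest to *Stat5a*, followed by *Fbf1* and *St6galnac5*. *Igf1* ran with the monocyte chemokine gene *Ccl2* (0.92) and *Atp6v0d1* (0.91). *Igf1r* ran with *Sash1* (0.93), *Mill2* and *A4galt*, *Stat5b* with *Alkbh1* (0.93), *Sp3* and *Mapkapk3*, and *Socs2* with *Ncaph2* (0.93), *Sfswap* and *Zcchc10*. For the binding proteins, *Igfbp7* was nearest to *Nhsl1* and *Tshz2* (0.97 each) and the vascular collagen gene *Col8a1* (0.97), *Igfbp5* to *Nckap5l*, *Rarres2* (0.96 each) and *Fam78b*, *Igfbp4* to *Sgce* (0.93), *Pcbp2* and *Shc1*, and *Igfbp3* to *Cpt1c* (0.94), *Spred2* and *Rhbdl3*. For each, 7213 or 7214 genes were compared.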

How the data were processed

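The libraries were made by 10x 3′ snRNA-seq from nuclei of iBAT that had been kept frozen. The deposited values are raw counts of UMIs per gene and nucleus, which the authors made with Cell Ranger 5.0.0, per the file headers. The submitters' processing notes also name Trimmomatic, FastQC and Seurat, and the build mm10. The gene annotation used, and whether intronic reads were counted, are not given in the sources used here. The authors removed nuclei with fewer than 500 UMIs, and no other nucleus was removed. Total counts were 10770604 and 13945673 UMIs.

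Nuclei were clustered with Seurat 5.3.0 (R 4.3.3), a later version than that of the study, with settings its methods state (LogNormalize, canonical correlation analysis, 20 PCs, resolution 0.5) and with 2000 variable features, a number chosen here. The study also names 8 PCs for later clustering, which were tried as an alternative. The 46 axis genes were kept out of the variable features. A cluster was named "X-like" when 3 or more of a type's markers had a minimum of 10 UMIs and 2 times the CPM of all other nuclei. Of the rest, clusters with at least 50% of the adipocyte markers at 1.5 times the CPM of the named clusters were adipocyte-like. Of 14 clusters, 5 were adipocyte-like (the largest, cluster 0, was led by the skeletal muscle marker *Ttn* and had no adipocyte marker among its 10 leading genes), 1 led by mitochondrial genes stayed unnamed, and 1 mixed dendritic and B cell cluster was used only among immune nuclei. Scrublet (scanpy 1.11.5) called 1 and 0 nuclei and so did not work. The setting without the highest doublet scores still used the scores of this tool. It removed the 721 and 616 nuclei that scored highest, numbers set by an assumed rate of 0.8% per 1000 nuclei.

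UMIs were summed per class and library and given as CPM with exact Poisson intervals. Ratios have exact conditional binomial intervals and shares exact (Clopper-Pearson) intervals, all at 95%. Of these steps, only the log2 ratio and its interval were tested on simulated data. The simulated counts followed the Poisson model that the interval assumes, so they say nothing about spread among nuclei or mice. Positions came from the RefSeq table of GRCm38.p6 and were found for all 10 genes. No sequence of the genes was used here.

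The 10 genes, the lists and the markers were chosen with earlier results of these data known. Named in the text are the 10 genes in classes with at least 100 nuclei in both libraries, other axis genes past 2-fold in adipocyte-like nuclei with at least 20 UMIs plus *Igf2*, *Insr*, *Jak2*, *Irs1* and *Cish*, the nearest neighbours, the 3 genes most alike in pattern among those with at least 50 CPM in a class, and *Wtap*. Of the genes alike in pattern, 1 is not reported here. *Ucp1* and *Selenop* were added after their values were seen, as were the readings without cluster 9 or cluster 0, within clusters 4 and 5, and by clusters and gate together.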

Additional observations from a re-analysis of the deposited data

Results flagged for a closer look

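*Socs2* was picked out because its counting intervals lay on opposite sides of 0 in different classes. Its log2 ratio between the libraries was 1.06 in adipocyte-like and 1.47 in endothelial-like nuclei and -1.45 in T cell-like nuclei. The difference between the classes was not tested, since each library is 1 sample, and the T cell-like value rests on 12 and 30 UMIs in 121 and 748 nuclei. That value was not recomputed under other settings, and the intervals of the thinned shares of T cell-like nuclei overlapped. Of the endothelial-like clusters, cluster 4 had a ratio of 1.40 (0.36 to 2.45) and cluster 5 one of 0.68, with an interval that spanned 0.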

How the results depend on the processing

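No paired analysis was possible because each genotype has 1 library, and for the same reason no replicate could be left out and depth limits only the counting error. Log2 ratios of single genes were recomputed under other settings in adipocyte-, fibroblast-, endothelial- and macrophage-like nuclei, but not in pericyte- and T cell-like nuclei. Of 443, 395 stayed within the counting interval of the reported value, 47 moved outside it and 1 reversed. A reversal was a change of sign of a reported ratio of at least 2-fold, here that of *Stat5a* in endothelial-like nuclei (-0.34 without nuclei over 5% mitochondrial UMIs). Changes of sign of smaller ratios, such as *Ghr* in endothelial-like (0.54 to -0.01) and macrophage-like nuclei (0.12 to -0.70), were not counted as reversals. The cause of these moves was not tested. *Ghr* in adipocyte-like nuclei (0.86) was 0.97 without mitochondrial UMIs in the denominator, 0.80 in nuclei with at least 1000 UMIs, 1.35 without nuclei over 5% mitochondrial UMIs (5191 and 1061 nuclei left), 0.74 with the marker gate, 0.73 by clusters and gate together, 0.36 without cluster 9 and 0.93 without cluster 0. *Igf1* there (3.27) stayed between 2.99 and 3.89, the latter without nuclei over 5% mitochondrial UMIs. Of the 10 genes, 5 at least 2-fold higher became 3 with the marker gate, and the 1 at least 2-fold lower became 0 without mitochondrial UMIs, without nuclei over 5% mitochondrial UMIs and without the highest doublet scores. Its log2 ratio (-1.06) was -2.23 without nuclei over 5% mitochondrial UMIs, with 15 and 1 UMIs and so under the minimum of 20. The 1 other axis gene at least 2-fold lower became 2 without nuclei over 5% mitochondrial UMIs, with 8 PCs, without cluster 0 and with genes of at least 1 UMI. The median of the other axis genes (0.22) became 0.34 without mitochondrial UMIs and 0.41 without nuclei over 5% mitochondrial UMIs, when that of all genes became 0.19 and 0.12. With the marker gate, the class with the highest level was the reported one for 6 of 10 genes in the library labelled *Wtap*-BKO, and *Ghr* was then highest in pericyte-like, *Stat5b* in T cell-like and *Igf1r* and *Igfbp7* in endothelial-like nuclei.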
